A study of Mus musculus with 4 samples.

Results

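The insulin-like growth factor (IGF) axis was followed in single-nucleus RNA sequencing of the injured mouse brain through 10 genes, out of 33696 genes counted. They encode the ligands Igf1 (ENSMUSG00000020053) and Igf2 (ENSMUSG00000048583), the receptor Igf1r (ENSMUSG00000005533), the binding proteins Igfbp2 (ENSMUSG00000039323), Igfbp3 (ENSMUSG00000020427), Igfbp4 (ENSMUSG00000017493), Igfbp5 (ENSMUSG00000026185) and Igfbp6 (ENSMUSG00000023046), and the pappalysins Pappa (ENSMUSG00000028370) and Pappa2 (ENSMUSG00000073530). The genes were selected by name, as one pathway, after a difference in Pappa2 between the libraries had been seen, so the library ratios of the members are given as descriptions and no test was made. All 10 had at least 1 UMI (unique molecular identifier, the count of captured RNA molecules) in the kept nuclei of each library.

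Nuclei came from a photothrombotic (PT) cortical injury, in which light closes vessels loaded with Rose Bengal, at 21 days post-injury (dpi). Wild-type control mice were compared with Cxcl12-cKO mice (Col1a2(creER); Cxcl12(flox)), in which a tamoxifen-inducible Cre driven by a fibroblast collagen promoter was meant to delete the chemokine gene Cxcl12. Tamoxifen was given after the injury, and the study's methods describe controls of such crosses in general as littermates that lacked Cre or carried a single floxed allele and also received it, so the genotype of these 2 control mice is known only by the label WT. The mice were adults backcrossed to C57BL/6, and the age of those sampled here is not in the labels. In each genotype 1 male and 1 female mouse were pooled into 1 gene expression library. Lesional nuclei and nuclei of the parenchyma around it were tagged apart and mixed in proportions that the authors set. With 1 library per genotype a difference has no replicate check, so intervals cover counting error only, and the nuclei assigned to the female and to the male mouse are shown side by side.

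The kept nuclei numbered 8095 and 7933 from the lesion and 2877 and 2838 from the parenchyma, in the control and Cxcl12-cKO library. Median depth was 2962 and 2975 UMIs in lesional nuclei and 15915 and 16648 in parenchymal nuclei. Cell barcodes shared between the libraries numbered 22 at most for any pair of regions. The targeted gene went against its label. Cxcl12 stood at 106 CPM (counts per 1000000 UMIs of the same nuclei) in lesional fibroblasts labelled control and at 216 CPM in those labelled Cxcl12-cKO (1506 and 3137 UMIs). Which exons were floxed is not stated in the labels or methods, so 3′ counts cannot check the deletion, and the libraries are called control-labelled and cKO-labelled throughout. Paired values below give the control-labelled library first.

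IGF1 and IGF2 signal through IGF1R, which drives growth and survival in many tissues. IGF binding proteins hold the ligands and limit their access to the receptor. Pappalysins are secreted metalloproteases that cut these carriers and release the ligand. PAPP-A cuts mainly IGFBP4, while PAPP-A2 cuts IGFBP3 and IGFBP5. In the brain, microglia and macrophages are a known source of IGF1 after injury, and meningeal fibroblasts are known to make several of the binding proteins.

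Clusters were named from marker genes and formed without the members or their pathway partners. Fibroblast nuclei carried 5 to 8 of 8 fibroblast markers per cluster and formed 7 clusters, with 4114 and 4051 lesional nuclei. Cluster 0 was late inner-like, cluster 6 leptomeningeal-like and cluster 8 dural or border-like. The other four had no state name and are called by their leading genes, which were Col7a1 and Mmp3 in cluster 1, Adamts9 and Trdn in cluster 2, Lama1 and Slc7a11 in cluster 7, and Prg4 and Cd80 in cluster 14. Markers of lymphocyte-interactive fibroblasts scored highest in clusters 1, 2 and 14, with a mean log2 fold of 0.99, 0.13 and 0.11 over other fibroblasts. Pial-like markers scored highest in cluster 7 (1.05). The next state scored 0.85 in cluster 1 and 0.81 in cluster 7. Myeloid nuclei numbered 1531 and 1948 in the lesion. Cluster 17, which carried myeloid and fibroblast markers together, stayed unnamed as mixed.

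Igf1 was highest in myeloid nuclei of the lesion, at 898 CPM (3224 UMIs) and 1024 CPM (5502 UMIs). Lesional fibroblasts came next, at 393 CPM (5568 UMIs) and 406 CPM (5901 UMIs). Both classes stood apart from the class below them by more than the range of the libraries. T cell, endothelial, osteoblast-lineage, oligodendrocyte and astrocyte nuclei lay between 71.6 and 283 CPM, and neighbours in that order overlapped. Fibroblasts were the more numerous class, so they held 52.1% and 45.0% of all lesional Igf1 UMIs against 30.2% and 42.0% in myeloid nuclei.

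An Igf1 UMI was seen in 61.0% and 68.8% of myeloid nuclei and in 37.3% and 38.3% of fibroblast nuclei. Oligodendrocyte precursors, not known as a main source, had one in 14.5% and 13.9% of nuclei at higher median depth (4358 and 4309 UMIs, against 3075 and 3104 in fibroblasts). After thinning each nucleus to 1000 UMIs the shares were 46.3% and 50.8% in myeloid nuclei, 21.1% and 21.6% in fibroblasts and 4.00% and 6.12% in the precursors. The fibroblast share was thus above that of the precursors at equal depth. The precursors are a low comparison, at 58.9 to 64.1 CPM of Igf1. T cell (154 to 283 CPM) and endothelial nuclei (169 to 173 CPM) stood higher.

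Among fibroblasts Igf1 was concentrated in the late inner-like cluster 0, at 1092 and 912 CPM, the same range as the myeloid class. This cluster held 52.3% and 49.4% of fibroblast Igf1 UMIs. Clusters 2 and 1 followed without separating from each other, at 458 and 371 CPM and at 372 and 431 CPM. The leptomeningeal-like cluster 6 was lowest at 67.6 and 61.0 CPM. Within the myeloid class, Igf1 was 924 and 1157 CPM in the homeostatic microglia-like cluster 10, 1073 and 1009 CPM in the Gpnmb-high-like cluster 15 and 801 and 851 CPM in the Mrc1- and F13a1-expressing cluster 9. The monocyte or dendritic-like cluster 28 had 115 and 65.5 CPM from 12 UMIs in each library. Microglia-like and Gpnmb-high-like nuclei thus kept no one order in both libraries, and cluster 28 stood far below the rest.

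Igf2, the fetal ligand, was nearly undetected. Its 18 UMIs in kept nuclei all came from the lesion, 16 of them from fibroblasts (9 and 7), each in a different nucleus. In the 51 and 49 parenchymal fibroblast nuclei no Igf2 UMI was seen, which allows up to 13.4 and 14.1 CPM by a limit of 3 counts. No order among cell types was read from these counts.

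Igf1r, the receptor, was found in every class, with the highest level in endothelial nuclei at 1244 and 735 CPM (582 and 200 UMIs). Mural nuclei, only 50 and 20 in number, had 561 and 532 CPM, and osteoblast-lineage nuclei had 437 and 447 CPM. Fibroblasts stood at 260.1 and 253 CPM, and oligodendrocytes lay above them in one library and below in the other, at 293 and 224 CPM. Inhibitory neurons were lowest in both libraries, at 198 and 204 CPM. The fibroblast clusters differed among themselves, from 602 and 511 CPM in cluster 7, which expressed basement membrane genes such as Lama1, to 124 and 127 CPM in cluster 2. Cluster 0, highest for Igf1, had 182 and 138 CPM of the receptor. In myeloid nuclei, cluster 10 had 546 and 513 CPM and cluster 15 had 191 and 174 CPM.

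**Figure D1:**
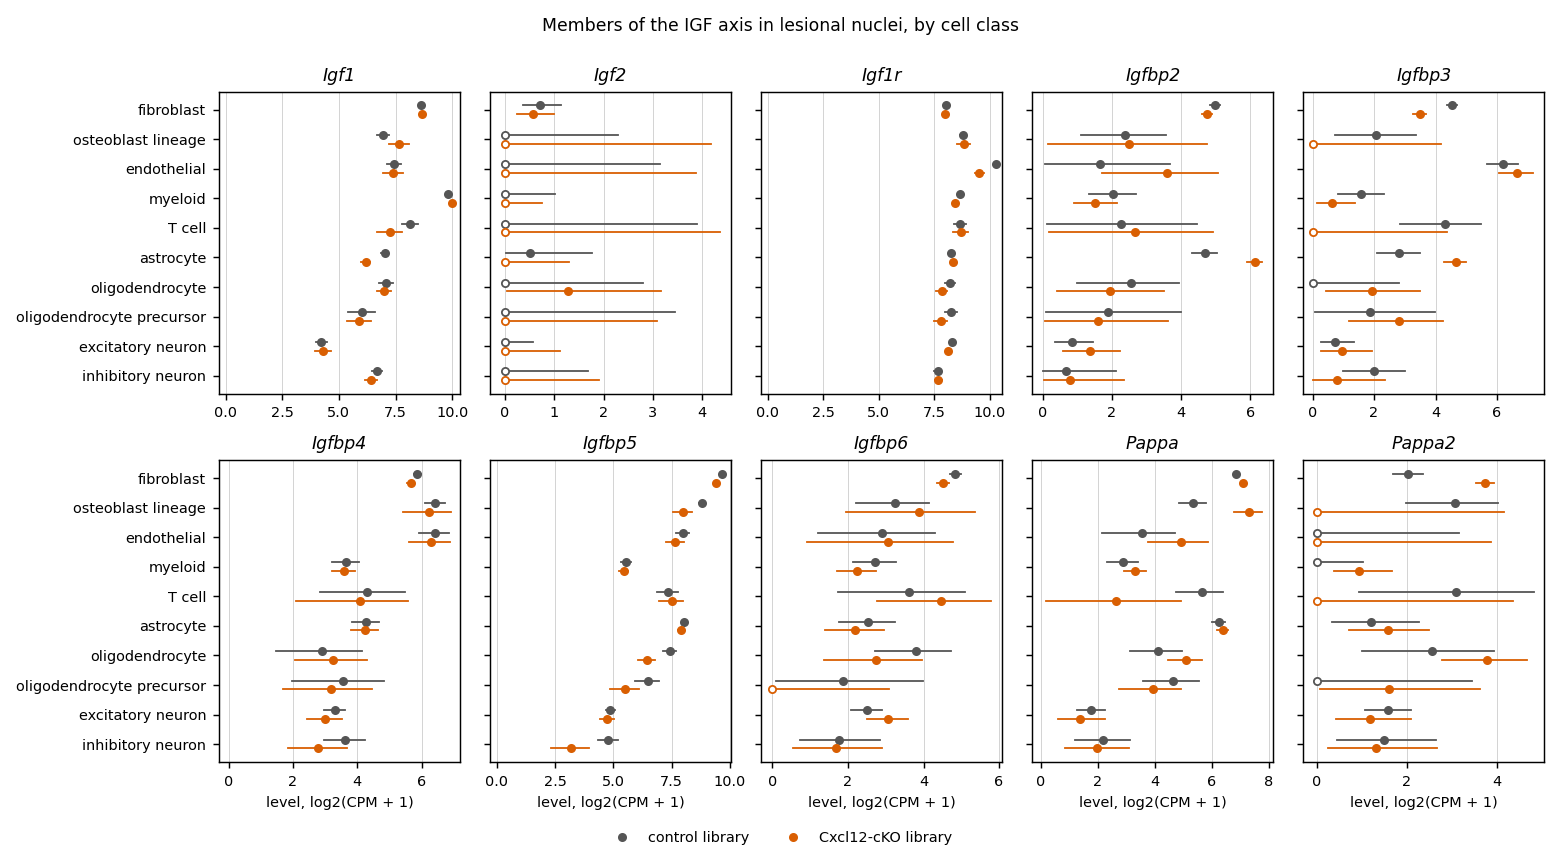
Level of each member in lesional nuclei of 10 cell classes, as log2(CPM + 1), for the control-labelled (grey) and cKO-labelled (orange) library, with horizontal bars for the exact Poisson 95% interval and open circles at 0 UMIs. Igf1 peaks in myeloid and fibroblast nuclei, Igf1r in endothelial nuclei, and Pappa, Igfbp5 and Igfbp6 are high in fibroblasts.

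Of the binding proteins, Igfbp5 and Igfbp6 were highest in fibroblasts. Igfbp5 was measured there at 810.1 CPM (11473 UMIs) and 689 CPM (10024 UMIs), and osteoblast-lineage nuclei came next at 451 and 253 CPM. Igfbp6, which prefers IGF2 over IGF1, had 27.7 and 21.99 CPM in fibroblasts, and the other named classes lay at or below 21.2 CPM, a T cell value that rests on 4 UMIs. Igfbp3, the main carrier in serum, was highest in endothelial nuclei at 72.7 and 99.2 CPM, and below them fibroblasts, at 22.2 and 10.2 CPM, overlapped astrocytes, at 6.08 and 24.1 CPM. Igfbp4 was led by endothelial (83.4 and 77.1 CPM) and osteoblast-lineage nuclei (84.8 and 73.7 CPM), which overlapped, and fibroblasts stood at 57.3 and 49.6 CPM. Igfbp2 was shared by astrocytes, at 24.7 and 69.3 CPM, and fibroblasts, at 30.6 and 25.8 CPM.

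The binding proteins divided the fibroblast clusters differently. Igfbp3 was almost confined to clusters 6 and 14, at 67.6 and 49.3 CPM and at 66.2 and 22.4 CPM, and cluster 2 had 0 UMIs in both libraries. Igfbp2 was highest in cluster 7, at 98.6 and 76.4 CPM, and in cluster 8, at 54.4 and 50.4 CPM, and lowest in cluster 0, at 3.37 and 3.13 CPM. Igfbp6 was high in clusters 6 (50.1 and 39.8 CPM), 8 (42.3 and 34.9 CPM) and 14 (27.7 and 36.7 CPM) and lay between 5.96 and 13.1 CPM in the other four. Igfbp5 was broad, from 429.5 CPM in cluster 1 to 1359 CPM in cluster 14. Igfbp4 was lowest in cluster 6, at 18.0 and 16.2 CPM, and otherwise between 38.1 and 107 CPM. The late inner-like cluster thus combined the highest Igf1 with the lowest Igfbp2.

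**Figure D2:**
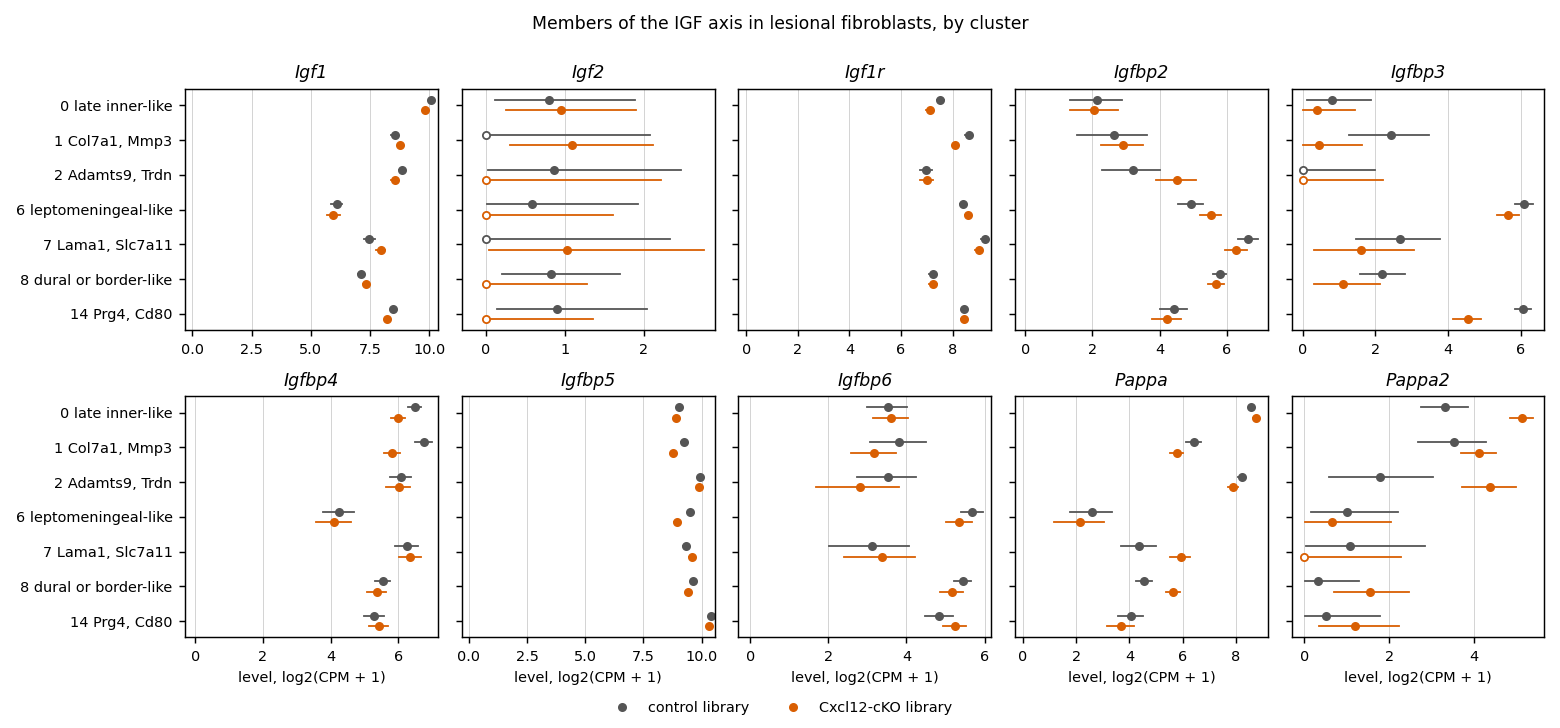
Level of each member in the 7 lesional fibroblast clusters, as log2(CPM + 1), for the control-labelled (grey) and cKO-labelled (orange) library, with exact Poisson 95% intervals as bars and open circles at 0 UMIs. Igf1 and Pappa are highest in cluster 0, Igfbp2 in cluster 7, Igfbp3 in clusters 6 and 14, and Igfbp5 in cluster 14.

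Pappa was highest in the same fibroblast cluster as Igf1. Its level in lesional fibroblasts was 115 CPM (1630 UMIs) and 135 CPM (1964 UMIs), and the class held 80.6% and 79.4% of all lesional Pappa UMIs. Osteoblast-lineage nuclei had 39.2 and 157 CPM and astrocytes 74.6 and 82.3 CPM, so the 3 classes overlapped or lay close. A Pappa UMI was found in 12.2% and 15.7% of fibroblast nuclei, against 1.18% of myeloid nuclei in both libraries.

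Cluster 0 had 382 and 426 CPM of Pappa and held 62.5% and 69.5% of the fibroblast UMIs. Cluster 2 followed at 296 and 238 CPM and the leptomeningeal-like cluster 6 was lowest, at 5.01 and 3.36 CPM. Pappa was also among the leading genes of cluster 0, although it had been left out when the clusters were formed. Counts were uneven between nuclei, with up to 42 and 87 UMIs in a single nucleus. Within cluster 0, an Igf1 UMI was seen in 70.6% and 72.9% of nuclei with Pappa and in 71.5% and 68.4% of nuclei without it.

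Pappa2 was far sparser, with 753 UMIs in all kept nuclei against 4861 of Pappa. In lesional fibroblasts it was seen in 30 of 4114 nuclei (0.729%) and in 83 of 4051 nuclei (2.05%), with at most 8 and 14 UMIs in one nucleus. The same share in lesional myeloid nuclei was 0% (0 of 1531) and 0.21% (4 of 1948), at median depths of 2036 and 2273 UMIs. By level, fibroblasts (3.11 and 12.4 CPM) did not stand apart from all other lesional classes. Oligodendrocytes had 4.88 and 12.9 CPM, though from 1 nucleus in each library. Most fibroblast UMIs lay in cluster 0 (54.5% and 60.0%), and the remainder mainly in cluster 1 (27.3% and 23.9%).

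In cluster 0 few nuclei had both pappalysins, 9 of 858 and 37 of 920. The share with Pappa was nonetheless higher among nuclei with Pappa2 than among those without it. Pappa was detected in 9 of 13 and in 37 of 49 nuclei with Pappa2, that is in 69.2% and 75.5%, and in 34.0% and 38.9% of those without it. Median depth of the nuclei with and without Pappa2 was 2262 and 2802 UMIs in the control-labelled library and 4368 and 2997 UMIs in the cKO-labelled library. The part of depth in these shares was not tested, and the control-labelled values rest on 13 nuclei with Pappa2.

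The first comparison set lesional fibroblasts of the libraries against each other. A gene was called past the fold where the 95% counting interval of its log2 ratio left out 0 and the ratio was at least 0.5 in size. Of 16538 genes with at least 20 UMIs over both libraries, 6.80% were called, with a median log2 ratio of 0.00. Of the 9 members with enough UMIs, 1 was called higher (Pappa2) and 1 lower (Igfbp3) in the cKO-labelled library, and their median was -0.21. The ratio of Pappa2 is one of the values that led to the selection of these genes, so nothing is read from that count.

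Pappa2 stood at 3.11 CPM (44 UMIs) and 12.4 CPM (180 UMIs), a log2 ratio of 1.98 (1.51 to 2.5). The 10 nuclei with most UMIs held 54.5% and 36.1% of them, and the interval makes no allowance for such uneven counts. In nuclei of the female mice Pappa2 was 1.71 and 19.6 CPM, and in nuclei of the male mice 1.77 and 6.99 CPM. These values rest on 10 and 100 UMIs in female nuclei and on 10 and 43 UMIs in male nuclei. The ratio of Pappa2 led to the selection of these genes, so nothing is read from its split by mouse. Nuclei with UMIs of both sexes, which include doublets, gave 9.73 and 13.4 CPM, and nuclei with UMIs of neither gave 8.22 and 8.45 CPM. In those groups the intervals of the libraries overlapped.

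Igfbp3, a substrate of PAPP-A2, ran the other way at 22.2 CPM (314 UMIs) and 10.2 CPM (148 UMIs), a log2 ratio of -1.12 (-1.42 to -0.84). It was 23.7 and 9.78 CPM in nuclei of the female mice and 17.3 and 10.6 CPM in those of the male mice, and lower as well in nuclei with UMIs of both sexes (22.9 and 6.44 CPM) and of neither (36.2 and 14.8 CPM). The UMIs came from 196 and 103 nuclei, at most 9 from one of them.

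The other members differed by less than the fold. Igf1 (log2 ratio 0.04) and Igf1r (-0.04) were closest to equal, and the intervals of both included 0. Pappa was at 0.23 (0.13 to 0.33), with 0.36 in female and 0.01 in male nuclei. Igfbp5 was at -0.23, from -0.43 in female to -0.10 in male nuclei. Igfbp2 (-0.25) and Igfbp4 (-0.21) were lower in male nuclei, at -0.72 and -0.51, but not in female nuclei, at 0.12 and 0.09. Igfbp6 (-0.33) was lower in female nuclei, at -0.73, but not in male nuclei, at 0.07. Pappa and Igfbp5 thus kept their direction in female and male nuclei. Igfbp2, Igfbp4 and Igfbp6 did not, though their values above 0 were at most 0.12. No test of the difference between mice was possible.

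**Figure D3:**
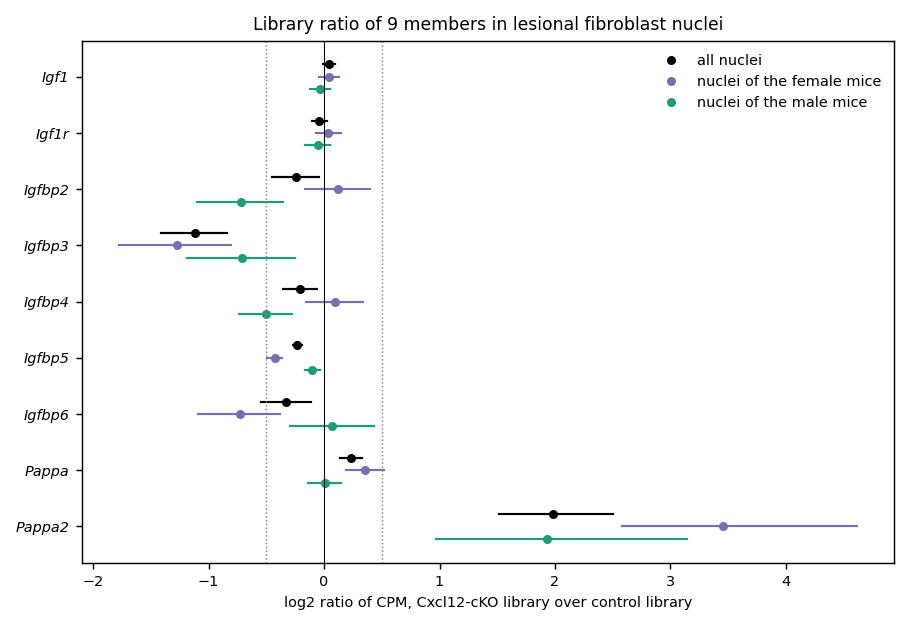
Log2 ratio of CPM, cKO-labelled over control-labelled library, for the 9 members with at least 20 UMIs in lesional fibroblasts, in all nuclei (black) and in nuclei of the female (purple) and male (green) mice, with 95% counting intervals and dotted lines at 0.5 in either direction. Pappa2 lies right of the upper line and Igfbp3 left of the lower line in all 3 sets of nuclei, while Igfbp2, Igfbp4 and Igfbp6 change side or size with the mouse.

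The makeup of the fibroblast class differed between libraries, so the members were also compared within clusters. Cluster 1 made up 6.10% and 13.9% of fibroblast nuclei, cluster 8 22.8% and 16.1%, and cluster 0 20.9% and 22.7%. Cluster 14 held nearly the same share, 16.7% and 16.9%. Background shares of genes called were 6.32% in cluster 0, 6.75% in cluster 1, 6.02% in cluster 2, 5.68% in cluster 6, 6.02% in cluster 7, 5.82% in cluster 8 and 7.87% in cluster 14.

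Within cluster 0, Pappa2 was at 8.99 CPM (24 UMIs) and 33.8 CPM (108 UMIs), a log2 ratio of 1.89 (1.26 to 2.61). Female nuclei gave 2.93 and male nuclei 1.81. The 24 control-labelled UMIs came from 13 nuclei, with up to 8 UMIs in a single nucleus. They are part of the ratio that led to the selection of these genes, so nothing is read from the cluster or its split by mouse. Cluster 2 had 3 and 20 UMIs, 14 of the latter in a single nucleus. In cluster 1 the values were 10.5 and 16.3 CPM, and the interval included 0. The other four clusters had 5 UMIs or fewer in either library.

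Igfbp3 was lower within cluster 14, at 66.2 and 22.4 CPM (log2 ratio -1.56, -2.04 to -1.11), in female (-1.86) and in male nuclei (-1.14). In the leptomeningeal-like cluster 6 it was 67.6 and 49.3 CPM, short of the fold at -0.45 (-0.86 to -0.06). No other fibroblast cluster had 20 UMIs of Igfbp3. Cluster 14 had no state name, and its leading gene Prg4 encodes lubricin, a boundary lubricant of joints and other surfaces.

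Pappa, nearly equal between the libraries over all fibroblasts, differed in opposite directions between clusters. It was higher in the cKO-labelled library in cluster 7 (19.7 and 59.9 CPM, log2 ratio 1.58) and cluster 8 (22.6 and 48.8 CPM, 1.11). In cluster 1 it was lower (83.9 and 53.8 CPM, -0.64). In all 3 clusters the male and female mice disagreed, with log2 ratios of 3.03 in female and -1.06 in male nuclei of cluster 7, 2.29 and -0.60 in cluster 8, and 0.54 and -2.31 in cluster 1. In cluster 0, with the most UMIs, the ratio was 0.16.

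Of members with enough UMIs, those called were 1 of 7 in cluster 0, 3 of 8 in cluster 1 and 2 of 7 in cluster 2. In cluster 6, 1 was called higher and 1 lower of 7. Counts were 1 of 6 in cluster 7, 1 of 7 in cluster 8 and 1 of 8 in cluster 14. The shares of all genes called are given above. Nothing is read from these counts, which include Pappa2. The members past the fold not yet named follow here. Igfbp2 was higher in cluster 2 (log2 ratio 1.38, from 10 and 22 UMIs) and in cluster 6 (0.60). Igfbp5 was lower in cluster 6 (-0.56), in female (-0.80) and in male nuclei (-0.34). Igf1r (-0.51) and Igfbp4 (-0.95) were lower in cluster 1. Igf1 had at least 20 UMIs in all 7 clusters and was called in none, with ratios from -0.30 to 0.48.

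**Figure D4:**
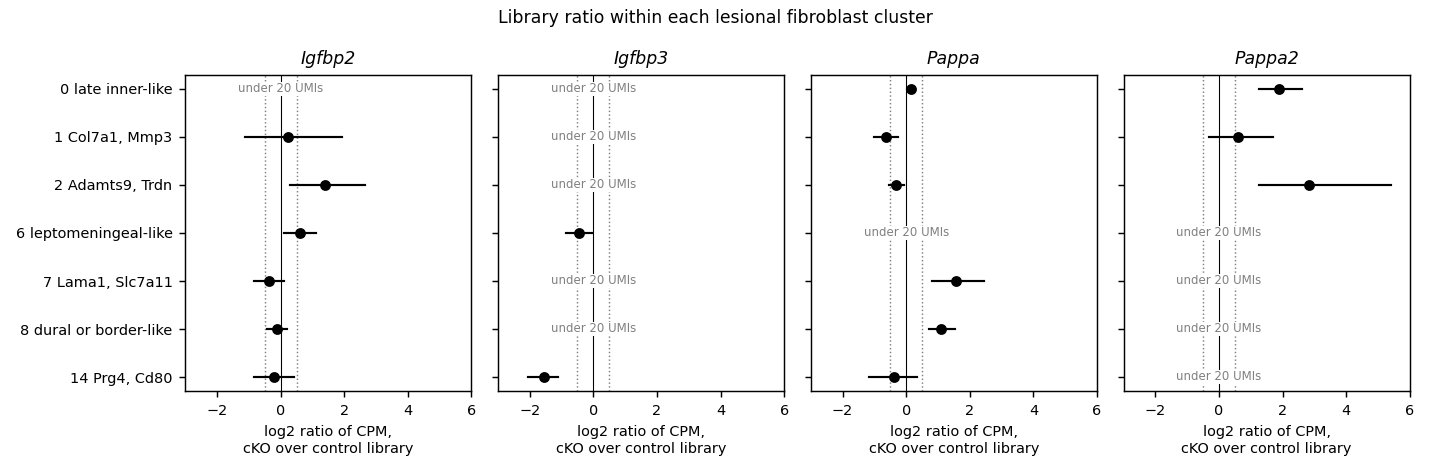
Log2 ratio of CPM, cKO-labelled over control-labelled library, of Igfbp2, Igfbp3, Pappa and Pappa2 within each lesional fibroblast cluster, with 95% counting intervals, for clusters with at least 20 UMIs over both libraries. Pappa2 lies above 0 in the 3 clusters with enough UMIs, Igfbp3 below 0 in 2, and Pappa on either side.

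In lesional myeloid nuclei 7 members had enough UMIs and 0 were called, against 6.64% of all genes. Igf1 had a log2 ratio of 0.19 (0.13 to 0.25), with female nuclei at 743 and 1012 CPM and male nuclei at 1129 and 1036 CPM. The female mouse labelled control was thus the one apart from the other three. Igf1r stood at 403 and 338 CPM, a log2 ratio of -0.25, with -0.27 in female and -0.29 in male nuclei. By cluster, with background shares of 6.57% in cluster 9, 6.19% in cluster 10 and 5.98% in cluster 15, Igf1r was called lower in cluster 9 (-0.54) and Igfbp5 higher in cluster 15 (1.15). The Gpnmb-high-like cluster 15 made up 14.6% and 25.1% of myeloid nuclei, and its Igf1 level was nearly that of the microglia-like cluster.

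Astrocytes, with 9.33% of genes called, had 3 members past the fold. Igfbp2 was 24.7 and 69.3 CPM (57 and 175 UMIs, log2 ratio 1.48), higher in female (0.82) and male nuclei (2.66). Igfbp3 was 6.08 and 24.1 CPM (14 and 61 UMIs, 1.95), likewise higher in both (1.08 and 2.04). Igfbp3 thus differed in the opposite direction in astrocytes and in fibroblasts, and no test of that difference was made. Igf1 was 129 and 71.6 CPM (-0.85), but only -0.15 and -0.27 in the female and male nuclei taken alone.

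The astrocyte class mixed clusters in different proportions. Gfap-high cluster 22 gave 188 and 326 nuclei and cluster 13 gave 348 and 198. Within cluster 22 Igf1 was 31.9 and 34.1 CPM and within cluster 13 it was 188 and 158 CPM, so the difference over the class was much smaller within either. Igfbp2 was 59.3 and 89.1 CPM in cluster 22 (52 and 157 UMIs) and 3.50 and 23.5 CPM in cluster 13 (5 and 18 UMIs). It was higher in the cKO-labelled library in both, but by less in cluster 22 than over the class. Igfbp3 was 10.3 and 30.7 CPM in cluster 22 (9 and 54 UMIs) and 3.50 and 9.15 CPM in cluster 13 (5 and 7 UMIs). The part of makeup in the class ratios of Igfbp2 and Igfbp3 was not tested.

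In endothelial nuclei (147 and 82, 9.15% of genes called) Igf1r had a log2 ratio of -0.76 (-0.999 to -0.53), with -0.61 in female and -1.49 in male nuclei. Osteoblast-lineage nuclei (348 and 83, 7.41% called) had Pappa at 39.2 and 157 CPM (37 and 34 UMIs, 2.00), Igf1 at 123 and 203 CPM (0.73) and Igfbp5 at 451 and 253 CPM (-0.82). T cells (11.4% called) had Igf1 at 283 and 154 CPM (-0.86). Igfbp5 was lower in oligodendrocytes (8.55% called), at 171 and 85.8 CPM, and in oligodendrocyte precursors (9.10% called), at 88.2 and 44.7 CPM. Each of these classes had fewer than 400 nuclei per library.

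Neurons were compared between lesion and parenchyma within each library. The background was wide, with 26.2% and 21.7% of genes called in excitatory and 23.8% and 22.5% in inhibitory neurons. Igf1 in excitatory neurons was 3.03 CPM in parenchyma and 17.7 CPM in the lesion of the control-labelled library, and 5.72 and 18.8 CPM in the cKO-labelled library. Its share of lesional excitatory nuclei after thinning, 0.60% and 0.85%, was below that of every other lesional class. Igfbp5, highest in fibroblasts, was also higher in lesional excitatory neurons, at 12.8 and 28.1 CPM in parenchyma and lesion of one library and 13.3 and 25.5 CPM in the other. The part of free RNA in these differences was not tested.

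Pappa2 went the other way in neurons. It was 4.60 CPM in parenchymal and 1.98 CPM in lesional excitatory neurons of the control-labelled library (log2 ratio -1.17), and 4.04 and 1.28 CPM in the cKO-labelled library (-1.50). Lesional values rest on 15 and 4 UMIs. In inhibitory neurons it was 4.66 and 1.80 CPM and 6.85 and 1.48 CPM, where the lesional values rest on 3 and 2 UMIs and 25 of the 62 parenchymal UMIs of the cKO-labelled library came from 1 nucleus. The interval included 0 in inhibitory neurons of the control-labelled library. Cluster 29, which held most inhibitory Pappa2 UMIs, made up 239 of 523 parenchymal and 57 of 139 lesional inhibitory nuclei of the control-labelled library, and 267 of 582 and 41 of 138 of the cKO-labelled one. The part of this makeup in the inhibitory difference was not tested.

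Parenchymal Pappa2 was concentrated in few neurons. The deep-layer-like cluster 25, with Syt6 and Hs3st4 among its leading genes, had 18.3 CPM (124 UMIs in 37 of 399 nuclei) and 12.8 CPM (82 UMIs in 26 of 359 nuclei). The inhibitory cluster 29, marked by Adarb2 and Vip, had 9.10 and 13.3 CPM, with up to 25 UMIs in one nucleus. The other excitatory and inhibitory clusters with at least 100 parenchymal nuclei in each library lay between 1.10 and 4.15 CPM. The smaller excitatory cluster 26, with 55 and 44 parenchymal nuclei, had 2.92 and 7.66 CPM (2 and 4 UMIs). Within cluster 25 the lesional nuclei had 5.12 and 1.34 CPM (8 and 1 UMIs), so the lower value in the lesion was also present within that cluster.

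Igf1 in parenchyma was mainly a gene of inhibitory neurons, at 67.3 and 89.4 CPM against 3.03 and 5.72 CPM in excitatory neurons of the same suspensions. Cluster 29 had 121 and 151 CPM and cluster 30, with Sst among its leading genes, 46.6 and 58.8 CPM. The Drd2-expressing cluster 20 had 4.08 and 8.76 CPM, close to excitatory neurons. Cluster 20 made up 111 of 523 parenchymal and 12 of 139 lesional inhibitory nuclei of the control-labelled library, and 125 of 582 and 52 of 138 of the cKO-labelled one, so the lesional inhibitory class was not the same mixture in the libraries. Within clusters, lesional Igf1 was 159 CPM in both libraries in cluster 29 (85 and 54 UMIs), and 87.9 and 101 CPM in cluster 30 (85 and 46 UMIs), each above its parenchymal value in the same library, though the intervals of cluster 29 in the cKO-labelled library overlapped. Lesional Igfbp5 was 22.5 CPM in cluster 29 of the control-labelled library (12 UMIs), with no UMI in the other, and 29.98 and 6.59 CPM in cluster 30 (29 and 3 UMIs). Igf1r was 228 and 231 CPM in parenchymal excitatory and 145 and 139 CPM in inhibitory neurons. It was higher in the lesion, at 308 and 277 CPM and at 198 and 204 CPM, and passed the fold in 1 of these 4 contrasts, the inhibitory neurons labelled cKO (0.56).

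**Figure D5:**
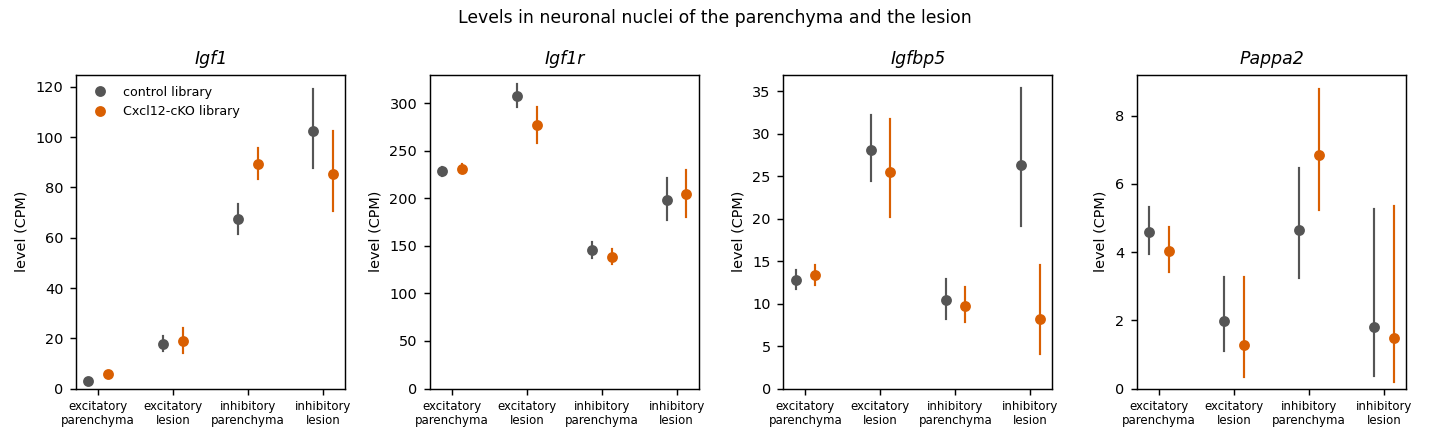
Level in CPM of Igf1, Igf1r, Igfbp5 and Pappa2 in excitatory and inhibitory neurons of parenchyma and lesion, for the control-labelled (grey) and cKO-labelled (orange) library, with exact Poisson 95% intervals. Pappa2 is lower and Igf1r higher in the lesion in both libraries. Igf1 and Igfbp5 in inhibitory neurons are higher in the lesion in the control-labelled library alone. Cluster 20, low in Igf1, was 12 of 139 lesional inhibitory nuclei in that library and 52 of 138 in the other. The part of this makeup in either gene was not tested.

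Between the libraries, parenchymal excitatory neurons had 3.93% of genes called and 2 members, Pappa at 2.21 and 3.28 CPM (log2 ratio 0.56) and Igf1 at 3.03 and 5.72 CPM (0.92). Parenchymal inhibitory neurons had 4.21% called and 1 member, Pappa at 5.06 and 9.28 CPM (0.87). Female and male nuclei were on the same side in these contrasts. Parenchymal levels of both genes in excitatory neurons were low, with an Igf1 UMI in 0.18% and 0.49% of nuclei after thinning.

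Fibroblasts of the parenchyma were rare, with 51 and 49 nuclei, mostly of the dural or border-like cluster 8. Igfbp6 was at 174 CPM (39 UMIs) and 155 CPM (33 UMIs) there, above its lesional level in any fibroblast cluster. Igf1 had 1 and 5 UMIs. In cluster 8 alone, Igfbp6 was 154 and 217 CPM in parenchyma and 42.3 and 34.9 CPM in the lesion, and Igf1 had no UMI in 29 and 26 parenchymal nuclei, which allows up to 20.9 and 23.3 CPM by the limit of 3 counts, against 140.0 and 161 CPM in the lesion. Within a cluster of one name, fibroblasts of the regions thus differed in these members. The parenchymal endothelial nuclei of the cKO-labelled library, 13 in number, had Igf1r at 2679 CPM.

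Of 28 partner genes of the axis, 20 had enough UMIs in lesional fibroblasts, 1 was called higher and 1 lower, beside the 6.80% of all genes given above. H19, the imprinted non-coding neighbour of Igf2, was 22.03 CPM (312 UMIs) and 35.7 CPM (520 UMIs), a log2 ratio of 0.70 with 0.68 in female and 0.78 in male nuclei. Stc2, an inhibitor of pappalysins, had 21 and 7 UMIs, and its direction differed between female (1.42) and male nuclei (-2.17). The other pappalysin inhibitor, Stc1, had 6 and 5 UMIs.

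Receptors and signalling genes of the axis were closer to equal in fibroblasts. Insr, the insulin receptor, was 208 and 206 CPM, Igf2r, which clears IGF2, was 69.5 and 72.9 CPM, and Irs1, a substrate of both tyrosine kinase receptors, was 426 and 451 CPM. Igfbp7, a related secreted protein, was 184 and 232 CPM (0.33). Adam12, another protease that cuts IGF binding proteins, was 1815 and 1978 CPM (0.12). The insulin genes Ins1 and Ins2 had 1 UMI between them, and Igfbp1 and Irs4 had 1 and 0.

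In lesional myeloid nuclei 17 partners had enough UMIs, and 4 were called higher and none lower beside the 6.64% of all genes. They were Adam12 at 41.8 and 82.8 CPM (0.98), Htra1, a serine protease, at 10.6 and 19.2 CPM (0.84), Grb10, an adaptor that restrains the receptor, at 15.0 and 26.2 CPM (0.79), and Irs1 at 12.8 and 18.4 CPM (0.52). Adam12, Htra1 and Grb10 were on the same side in female and male nuclei, and Irs1 was not. All 4 were higher in lesional fibroblasts, and the part of fibroblast RNA in the myeloid values was not tested.

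Genes most like a member in pattern were named by Pearson's r of log2 levels over 36 profiles, 18 cell groups in each of the libraries, across 15384 genes. The profiles share libraries and depth, so r is a description. Pappa was most like Plagl1 (0.88), an imprinted zinc finger gene, Nox4 (0.88), an NADPH oxidase of fibroblasts, and Col27a1, Adamts9 and Mid1 (0.83 each). Igf1 was most like Adcy7 (0.88), an adenylyl cyclase of immune cells, followed by Dtnbp1, Vps13c, Mylip and Prkcd (0.86 to 0.87). Pappa2 had lower likeness, with Gm13832 (0.69), Gng8 (0.67) and Dact3 and Col6a1 (0.65 each) first. Igf2, with 18 UMIs, reached at most 0.60 and was not read further. Among the members themselves r was 0.73 for Igfbp4 and Igfbp5, 0.51 for Pappa and Pappa2 and 0.23 for Pappa and Igf1.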

How the data were processed

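Single-nucleus RNA was measured in 2 gene expression libraries, each deposited as a lesion and a parenchyma matrix. The authors deposited UMI counts per gene and barcode, made with Cell Ranger 9.0.0 on GRCm39 (submitters' processing notes). The sources used here do not state whether intronic reads were counted. The 2 tag libraries were not used here, beyond the split by region that the authors had made. Of 23489 barcodes, 21743 were kept, between 757 and 36244 UMIs and with at most 8.75% mitochondrial UMIs. Nuclei were normalised to 10000 UMIs and clustered in scanpy 1.11.5 (3000 variable genes, without members, partners and sex-linked genes, 30 components, Leiden resolution 1). Naming thresholds (a UMI in 10% of nuclei, at least 3 markers) were set after clusters were seen. Doublets were not removed. Clusters with over 50% of nuclei among the highest 10% of Scrublet scores and markers of another class stayed unnamed, and UMIs of both sexes, in 9.75% to 14.3% of nuclei per matrix, mark male and female doublets or free RNA. Nuclei were assigned to a mouse by Xist or Y-linked UMIs.

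UMIs were summed per class, region and library as CPM with exact Poisson 95% intervals. Log2 ratios, with 0.5 added to each sum, have conditional binomial intervals, for genes with at least 20 UMIs. Shares were thinned to 1000 UMIs per nucleus. The ratio script was checked on simulated counts. With 1 library per genotype no test was made. All 10 members and those partners past the fold in lesional fibroblast or myeloid nuclei, or high in their role, are named. Members and lists were chosen with earlier results of these data known.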

Additional observations from a re-analysis of the deposited data

Results flagged for a closer look

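Some library ratios had opposite directions in nuclei of the female and of the male mice, with counting intervals on either side of 0. The difference between the mice was not tested, since each library holds 1 mouse of each sex, and sex, animal and library cannot be told apart. Values are log2 ratios of CPM, cKO-labelled over control-labelled, in lesional nuclei.

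Igf1 in myeloid nuclei was at 0.44 in female and -0.12 in male nuclei. In inhibitory neurons Igf1 was at -0.60 in female nuclei (109 and 72.3 CPM) and 1.43 in male nuclei (42.2 and 113 CPM). Cluster 20, where Igf1 was low, made up 12 of 139 and 52 of 138 lesional inhibitory nuclei, and its part in these values was not tested. Igf1 in fibroblast cluster 1 was at -0.91 in female nuclei (817 and 435 CPM) and 0.41 in male nuclei (291 and 388 CPM). Pappa in astrocytes was at -0.72 in female nuclei (68.8 and 41.7 CPM) and 0.73 in male nuclei (83.5 and 139 CPM). For Igfbp5 there were 3 such cases. In fibroblast cluster 0 it was at -0.75 in female and 0.19 in male nuclei, in fibroblast cluster 14 at 0.24 and -0.31, and in the Gfap-high astrocyte cluster 22 at 0.44 and -0.89. Neither Pappa2 nor Igfbp3 in fibroblasts was among these cases. Nothing is read from that for Pappa2, which led to the selection and had 10 control-labelled UMIs in female and 10 in male nuclei.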

How the results depend on the processing

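No paired analysis was possible because each genotype has 1 library and no test was made. The count of members past the fold in lesional fibroblasts was 2 and their median log2 ratio -0.21. In female nuclei alone the values were 3 and 0.041, and in male nuclei alone 4 and -0.056, with fewer nuclei and other mice behind them. Elsewhere (a median-centred scale, equal weight per nucleus, clustering at resolution 0.25 or 0.5, doublets left out by sex-linked UMIs or by Scrublet score, at least 1000 UMIs per nucleus, all barcodes) the count was 2 and the median stayed between -0.23 and -0.13. After seeing the data, 2 alternatives were added, counting the mixed cluster 17 as fibroblast or myeloid and leaving out the nucleus with most UMIs of each gene, with the same count of 2. Pappa2 ranged from 1.42 to 3.45 and Igfbp3 from -1.27 to -0.71, past the fold in 13 of 13 settings each. The settings reuse nuclei of the same libraries, so this count is no replicate check. The ratio of Pappa2 also led to the selection of these genes. For single genes, 97 of 117 fibroblast values and 68 of 77 myeloid values moved by less than their counting interval, and in 0 was a called direction turned. Depth limits Igf2, and Pappa2 outside fibroblasts and neurons.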
